A study of Mus musculus with 2 samples.

Results

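The Ikaros family of zinc finger transcription factors was followed in single thymic cells of the regulatory T (Treg) lineage. The 5 members were Ikzf1, Ikzf2, Ikzf3, Ikzf4 and Ikzf5, chosen by name from the 32285 genes measured. All 5 were detected. The study profiled cells from 2 mice on the C57BL/6 background by droplet 3′ RNA sequencing, with 1 mouse per genotype. The Lta-/- mouse carried the Foxp3eGFP reporter and lacked Lta, the gene of lymphotoxin alpha, a secreted cytokine of the tumour necrosis factor family. The control mouse carried the Foxp3eGFP reporter alone, in which green fluorescent protein marks cells that express Foxp3. The labels do not state the animals' ages. From each thymus, after depletion of CD8+ and CD11c+ cells, 20000 CD4+CD8- CCR6- CD3e+ cells that carried CD25, the reporter or both were sorted. The cells of each mouse were marked with a hashtag antibody and loaded together in 1 capture, so replicate error could not be estimated and the mice were not tested against each other. The sort was set on proteins, so a cell without a Foxp3 or Il2ra transcript in the data may still have met it.

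Ikaros family proteins bind DNA through N-terminal zinc fingers and pair with themselves and each other through C-terminal fingers, and they recruit chromatin remodelling complexes such as NuRD. Ikaros, encoded by Ikzf1, is needed for lymphocyte development, Aiolos (Ikzf3) acts mainly in maturing lymphocytes, and Pegasus (Ikzf5) is a more distant relative expressed in many tissues. Helios (Ikzf2) is found in most Treg cells of thymic origin and in T cells that receive strong signals from self antigen, and Eos (Ikzf4) works with Foxp3 in gene silencing. Counting at the 3′ end gives 1 value per gene, so the splice forms of Ikaros and of Helios were not separated.

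After filtering, 4638 cells were kept, of which 2244 were assigned to the Lta-/- mouse and 2209 to the Foxp3eGFP mouse. The medians were 5395 and 5547 UMIs (unique molecular identifiers, 1 per captured transcript) per cell in Lta-/- and Foxp3eGFP cells. Another 185 cells (3.99%) carried both hashtags, at a median of 10532 UMIs, and stood in no comparison between genotypes. The targeted gene, Lta, had 72 UMIs in Lta-/- cells and 509 UMIs in Foxp3eGFP cells. Cd3e was detected in 95.2% of the cells and Cd4 in 60.1%, against 2.72% for Cd8a and 2.501% for Ccr6. Cd8b1, the other CD8 gene, was detected in 14.8%, at 32.5 CPM (counts per 1000000 UMIs). Intervals in brackets are exact 95% intervals and cover counting error only. Levels are counts per 1000000 UMIs summed over a group of cells (CPM), and a ratio is the log2 ratio of 2 such levels.

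Ikzf2 was the most abundant member. It had 801 CPM (791 to 811) over all kept cells, rank 156 of 17836 detected genes, and up to 59 UMIs in 1 cell. Ikzf1 followed at 226 CPM (221 to 232), then Ikzf3 at 95.1 CPM (91.7 to 98.5) and Ikzf4 at 79.96 CPM (76.8 to 83.2). Ikzf5 was lowest at 24.6 CPM (22.9 to 26.4). A 3′ count is close to 1 per transcript whatever its length, though capture can differ between genes, so this order is that of the counts. None of the 5 intervals overlapped another. Ikzf1 was detected in more cells (65.6%) than Ikzf2 (60.9%) in spite of its lower level, and Ikzf3, Ikzf4 and Ikzf5 had a UMI in 37.8%, 32.6% and 14.3% of the cells.

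The transcript of Ikzf2 was spread very unevenly over the cells. After each cell had been thinned to 3000 UMIs, which 4325 cells (93.3%) reached, Ikzf2 averaged 2.59 UMIs per cell. Its variance was 5.25 times its mean, above that of all 47 genes of like mean, whose median was 1.53. The same quotient was 1.19 for Ikzf1, 1.32 for Ikzf3, 1.40 for Ikzf4 and 1.06 for Ikzf5. At such low means the quotient lies near 1 for most genes. Ikzf4 stood above 93.5% of genes of like mean, Ikzf3 above 89.9%, Ikzf5 above 65.9% and Ikzf1 above 63.3%. When each cell's reads were split in 2 parts of 1500 UMIs, cells without Ikzf2 in the first part had none in the second in 83.0% of cases. Cells with 4 or more in the first averaged 4.01 in the second, and 53.2% of them had 4 or more again while 4.35% had none. In the first part, 2352 cells had none and 575 had 4 or more. The 2 shares start from such unlike base rates that they do not show which state was better repeated.

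The genes lie on chromosome 11 (Ikzf1, 11684962 to 11772930, and Ikzf3), chromosome 1 (Ikzf2, 69531207 to 69687351), chromosome 10 (Ikzf4) and chromosome 7 (Ikzf5) of GRCm38. In the RefSeq annotation of that build, the span of Ikzf1 overlaps Gm11999, that of Ikzf3 Gm25106, that of Ikzf4 Gm26876 and Gm51824, and that of Ikzf5 Pstk. Ikzf2 overlaps no other annotated gene. The sources used here do not say how the authors counted reads in shared stretches.

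Cells in which Foxp3, Il2ra or both were detected had more Ikzf2 than cells with neither, and in pooled counts the 3 groups were close to each other. Foxp3 encodes the master regulator of Treg cells and Il2ra encodes CD25, the alpha chain of the interleukin 2 receptor. Both transcripts were found in 426 cells, Foxp3 alone in 524, Il2ra alone in 615 and neither in 3073. Ikzf2 had 1107 CPM in cells with both, 1151 CPM with Foxp3 only, 1160 CPM with Il2ra only and 634 CPM with neither. The log2 ratios over cells with neither were 0.80 (0.75 to 0.86), 0.86 (0.81 to 0.92) and 0.87 (0.83 to 0.92), in that order. Cells with Il2ra only differed from cells with Foxp3 only by a log2 ratio of 0.01 (-0.05 to 0.07). In terms of cells, Ikzf2 was detected in 82.0% of cells with both, 73.1% with Foxp3 only, 77.8% with Il2ra only and 43.2% with neither, all at 3000 UMIs. Its levels at that depth were 1083, 1210, 1259 and 693 CPM in the same order, so cells with both stood somewhat lower than the other 2 groups. Median depths in the same order were 5770.5, 4743, 5915 and 5565 UMIs.

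Ikzf4 followed Foxp3 more closely than it followed Il2ra. It stood at 151 CPM in cells with both transcripts, 146 CPM with Foxp3 only, 100 CPM with Il2ra only and 56.3 CPM with neither. Its log2 ratios over cells with neither were 1.42 (1.26 to 1.58), 1.38 (1.22 to 1.54) and 0.83 (0.67 to 0.99), and cells with Il2ra only were below cells with Foxp3 only by -0.55 (-0.74 to -0.35). Of the 5 members, Ikzf4 had the largest ratio for cells with Foxp3. Ikzf3 was higher in cells with Foxp3 only, at 124 CPM, than in cells with both (97.6 CPM), with Il2ra only (86.1 CPM) or with neither (92.5 CPM). Its log2 ratio over neither was 0.43 (0.26 to 0.59) in the Foxp3-only cells, and the intervals of the other 2 classes held 0.

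Ikzf1 ran the other way. It was 188 CPM in cells with both, 192 CPM with Foxp3 only, 201 CPM with Il2ra only and 242 CPM with neither, with log2 ratios of -0.37 (-0.50 to -0.24), -0.34 (-0.46 to -0.21) and -0.27 (-0.37 to -0.16). The last of these was -0.074 in Lta-/- cells alone and -0.39 in Foxp3eGFP cells alone. Ikzf5 had 32.6 CPM with both against 24.0 CPM with neither, a log2 ratio of 0.44 (0.11 to 0.76) that became -0.026 when cells were thinned to 3000 UMIs and 0.088 in Lta-/- cells alone. At a fold of 1.5, 2 of 5 members were higher and 0 lower in each of the 3 comparisons with neither. Over all genes with at least 100 UMIs the shares past that fold were 5.93% higher and 11.8% lower for cells with both, 5.81% and 11.7% for Foxp3 only, and 4.91% and 6.44% for Il2ra only. A class was defined by the Foxp3 and Il2ra counts alone, so no member's count was used to set it. The classes differed in depth, and cells were not matched for depth in these ratios.

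Genes of other cells moved with these classes. The 12 proliferation markers together made up 638 CPM in cells with both, 829 CPM with Foxp3 only, 1165 CPM with Il2ra only and 2362 CPM with neither. The 6 plasma cell markers summed to 136, 154, 128 and 589 CPM in that order, with Iglc2 at 0 in the Foxp3-only and Il2ra-only cells. The 8 B cell markers summed to 89.4, 131, 87.2 and 281 CPM, with Pax5 at 0 in all 4 classes. Without the clusters led by cell cycle, plasma cell or myeloid genes, the Ikzf2 ratios were 0.60, 0.74 and 0.81, against 0.80, 0.86 and 0.87 with all cells. The cluster led by plasma cell genes also had 10 of 12 mature Treg markers at least 1.5-fold higher, and 40 of its 329 cells had both gate transcripts, 66 Foxp3 only and 67 Il2ra only, so leaving it out also removed cells with Treg transcripts.

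**Figure D1:**
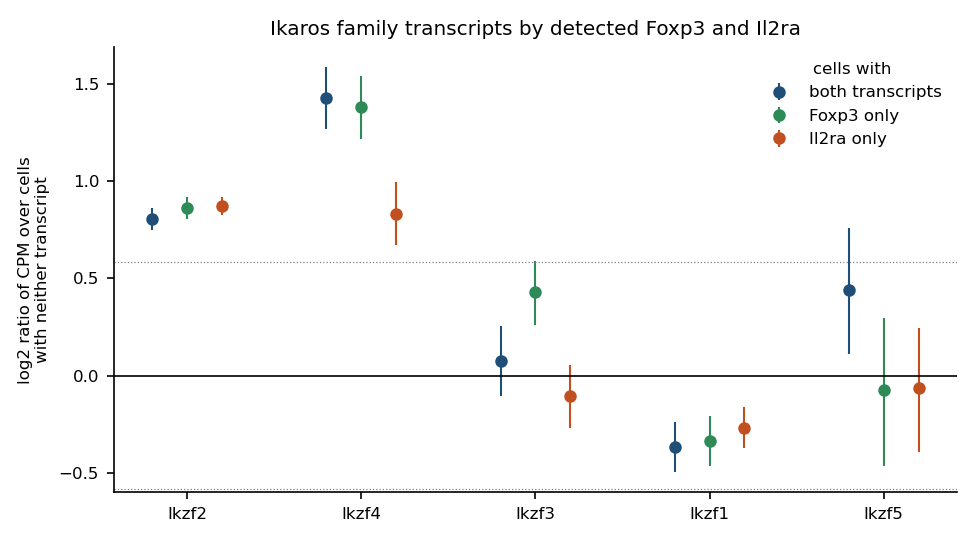
Log2 ratio of the level (CPM) of each Ikaros family gene in cells with both Foxp3 and Il2ra UMIs, with Foxp3 only or with Il2ra only, each over cells with neither. Bars are 95% counting intervals and dotted lines mark a fold of 1.5. Ikzf2 sits between 0.80 and 0.87 in all 3 classes, Ikzf4 is highest where Foxp3 was detected, and Ikzf1 lies below 0 in all 3.

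To see which cell states carried each member, cells were grouped into 11 clusters, numbered from 0, without using the family genes, Foxp3 or Il2ra. Ikzf2 differed widely between them. Cluster 0, led by Nrp2, Tubb2b and Arhgap20 and left unnamed, had 1683 CPM (1637 to 1730). Cluster 3, agonist-signalled precursor-like and led by Lad1, Trib1 and Tnfrsf9, had 1474 CPM (1441 to 1506). Cluster 1, led by Ccl4, Xcl1 and Cd83, had 1386 CPM (1320 to 1454). Cluster 6, mature Treg-like with Rgs1, Foxp3 and Il2ra among its leading genes, also passed 1.5-fold for 11 of 12 markers of interferon-responding cells. It had 1092 CPM (1061 to 1124) of Ikzf2. The cells with the highest Ikzf2 were thus not those with the most Foxp3, which stood at 9.85 CPM in cluster 3, 36.6 CPM in cluster 0 and 181 CPM in cluster 6. Cluster 7, of mixed Gzmc, Cxcr3 and S100a4 expression, had 841 CPM, and cluster 2, led by Mzb1 and Jchain, had 635 CPM.

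Among the clusters with low Ikzf2, cluster 5 had 329 CPM (305 to 354). It was mature CD4 single-positive-like and carried S1pr1, the receptor used to leave the thymus. The proliferating-like cluster 8, with a median of 14583.5 UMIs per cell, had 249 CPM (235 to 263). Cluster 9, mature CD4 single-positive-like and led by Igfbp4, had 115 CPM (104 to 127). Cluster 4, immature CD4 single-positive-like and led by the chemokine receptor gene Ccr9, had 114 CPM (102 to 128), which could not be told from cluster 9. At 3000 UMIs Ikzf2 was still found in 14.4% of cells in cluster 4 and 12.5% in cluster 9. Free RNA in the droplets can give such a share, and no cell type in the capture was sure to lack the gene, so shares near these values are not read as expression. The 62 barcodes of cluster 10, led by the myeloid genes H2-Aa, Lyz2 and C1qa, had 1466 CPM of Ikzf2 at a median of 1271.5 UMIs. The 14 of them that reached 3000 UMIs had 214 CPM, so the high level came from the shallow barcodes.

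**Figure D2:**
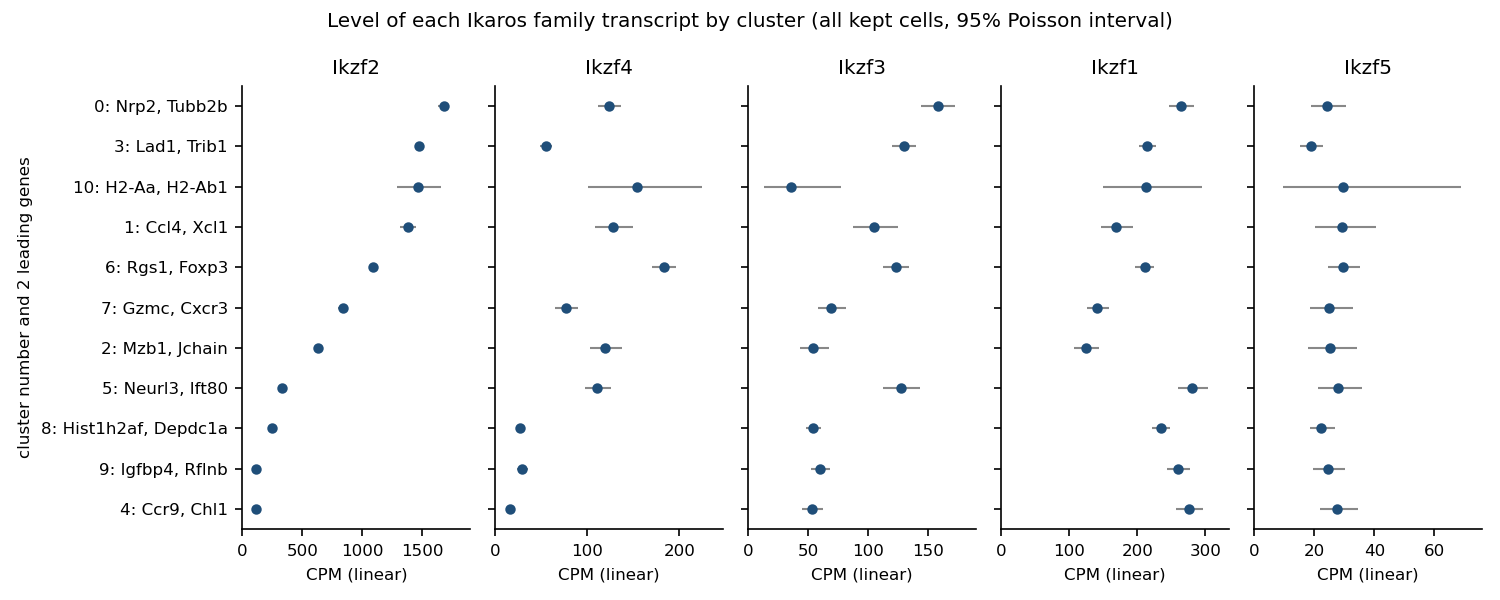
Level (CPM, linear axes that differ between panels) of the 5 Ikaros family genes in 11 clusters of cells, ordered by Ikzf2, with 95% Poisson intervals. Ikzf2 runs from 114 to 1683 CPM, whereas Ikzf5 stays between 18.8 and 29.6 CPM, and Ikzf4 peaks in cluster 6.

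Ikzf4 had another order. It was highest in the mature Treg-like cluster 6, at 183 CPM (171 to 196), followed by cluster 1 at 128 CPM, cluster 0 at 123 CPM, cluster 2 at 119 CPM and the S1pr1-positive cluster 5 at 111 CPM. The intervals of these 4 overlapped. The 62 barcodes of cluster 10 had 154 CPM on 26 UMIs (100.4 to 225). In the precursor-like cluster 3, where Ikzf2 was near its highest, Ikzf4 had only 54.8 CPM (48.8 to 61.5). It was lowest in cluster 4, at 16.2 CPM (11.8 to 21.6). Cluster 5 showed the reverse pairing, with Ikzf2 at 329 CPM and Ikzf4 at 111 CPM.

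Ikzf3 was highest in cluster 0, at 158 CPM (144 to 173). Clusters 3, 5 and 6 followed at 130, 127 and 123 CPM, with overlapping intervals, and clusters 4, 2 and 8 were lowest, apart from the 62 barcodes of cluster 10, at 53.2, 54.1 and 54.2 CPM. Ikzf1 was flattest among the more abundant members. It had 281 CPM in cluster 5, 276 CPM in cluster 4 and 265 CPM in cluster 0, against 124 CPM in cluster 2 and 141 CPM in cluster 7. Cluster 1 was next lowest at 169 CPM (147 to 194), and the mature Treg-like cluster 6 had 211 CPM. Cluster 2 passed 1.5-fold for 10 of 12 mature Treg markers, cluster 7 for 6 and cluster 1 for 11. Ikzf5 ranged from 18.8 to 29.6 CPM, and its intervals overlapped in most pairs of clusters.

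The pattern over clusters and genotypes (22 groups, 11 clusters in 2 mice) was compared with that of 6094 genes, as a description, by Pearson's r of log2(CPM + 1). The groups share 1 capture and differ in depth. The genes most like Ikzf2 were Samsn1 (r = 0.89), Swap70, Tnfrsf1b, Tbc1d4 and Gsap (r = 0.88). Those most like Ikzf4 were Irak2 (0.89), Tnfrsf25, Cyth4, Inpp5f and Foxp3 itself (0.86). For Ikzf3 they were Eapp (0.87), Ddx5, Prdm2, Paip1 and Sdhaf1, for Ikzf1 Phf14 (0.85), Thoc2, Ube2d3, Mlec and Pxmp4, and for Ikzf5 Tap2 (0.74), Itsn2, Ppp3ca, Ier2 and Aff1. Within the family, Ikzf2 and Ikzf4 were most alike (0.79), and Ikzf1 ran against Ikzf2 (-0.40).

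Single marker genes gave a finer view, with cells that had at least 1 UMI of a marker compared with cells that had none at 3000 UMIs per cell. Over 32 markers, Ikzf2 was higher with 16 and lower with 11 beyond counting error, Ikzf4 15 and 15, Ikzf3 7 and 9, Ikzf1 6 and 12, and Ikzf5 1 and 0. These numbers depend on depth, at means of 2.59 Ikzf2 and 0.0795 Ikzf5 UMIs per cell. No share over all genes is given, so they do not rank the members by their tie to cell state. The strongest partner of Ikzf2 was Tnfrsf9, which encodes 4-1BB, a costimulatory receptor induced by antigen. Ikzf2 had 1738 CPM in the 1105 cells with Tnfrsf9 and 564 CPM in the cells without it, a log2 ratio of 1.62 (1.57 to 1.68). The related receptor genes Tnfrsf4 (OX40) and Tnfrsf18 (GITR) gave 1.29 (1.23 to 1.35) and 0.95 (0.89 to 1.01). Ikzf2 was also higher in cells with Cd24a, a marker of immature thymocytes (0.97), and with Nr4a1, an early gene of T cell receptor signalling (0.79). It was lower in cells with Igfbp4 (-1.98), with Mki67, a marker of proliferation (-1.29), and with Il7r, the interleukin 7 receptor (-1.16). Unlike with Cd24a, Ikzf2 was lower with Ccr9 (-0.21, -0.28 to -0.13), which led the immature CD4 single-positive-like cluster 4. It did not differ beyond counting error with Gpr83 (0.00, -0.09 to 0.09) or Cd69 (-0.01, -0.08 to 0.06).

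Ikzf4 parted from Ikzf2 over some of these markers and went with it over others. It was higher with Foxp3, at 170 CPM against 76.6 CPM without (1.15, 0.96 to 1.34), and with the integrin gene Itgae (1.25), though only 61 cells had Itgae. It was also higher with S1pr1 (0.94) and Klf2 (0.86), genes of cells about to leave the thymus, and with the Treg genes Ctla4 (0.86) and Gpr83 (0.85). It was lower with Xcl1 (-0.97), Egr3 (-0.76) and Nr4a1 (-0.54). For 9 of the 32 markers, Nr4a1, Egr3, Nfkbid, Bcl2l11, Cd24a, Ccr7, S1pr1, Ifit1 and Xcl1, the interval lay on opposite sides of 0 for Ikzf2 and Ikzf4. Like Ikzf2, Ikzf4 was higher with Tnfrsf4 (0.99) and Tnfrsf18 (0.93). Both genes were also lower with Mki67 (-1.52 for Ikzf4), Igfbp4 (-1.02) and Il7r (-0.63). Ikzf3 was higher with Tnfrsf9 (0.77) and Bcl2l11, a gene of cell death (0.62), and lower with Igfbp4 (-0.79). Ikzf1 was lower with the effector genes Cxcr3 (-1.14), Itgae (-0.99) and S100a4 (-0.76), and higher with Nr4a1 (0.32).

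Cells were then split by their Ikzf2 count at 3000 UMIs. Of 4325 cells, 1951 (45.1%, 43.6 to 46.6) had none, 871 (20.1%) had 1 to 2, 706 (16.3%) had 3 to 5, and 797 (18.4%, 17.3 to 19.6) had 6 or more. These levels are called zero, low, middle and high below. The counts fell off without a gap from 523 cells with 1 UMI to 171 with 6 and 69 with 10, so the bounds cut a continuum. Just outside the bound of the high level, 185 cells had 5 UMIs. The high share was 18.3% in cells with both gate transcripts, 27.3% with Foxp3 only, 28.5% with Il2ra only and 14.9% with neither. In the same order 18.0%, 26.9%, 22.2% and 56.8% had no Ikzf2. Although high cells were rarest among cells with neither transcript, that class was so large that it held 53.2% (49.7 to 56.7) of all high cells. By cluster the high share was 40.8% in cluster 0 and 40.4% in cluster 3, against 0.957% in cluster 4 and 1.32% in cluster 9.

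**Figure D3:**
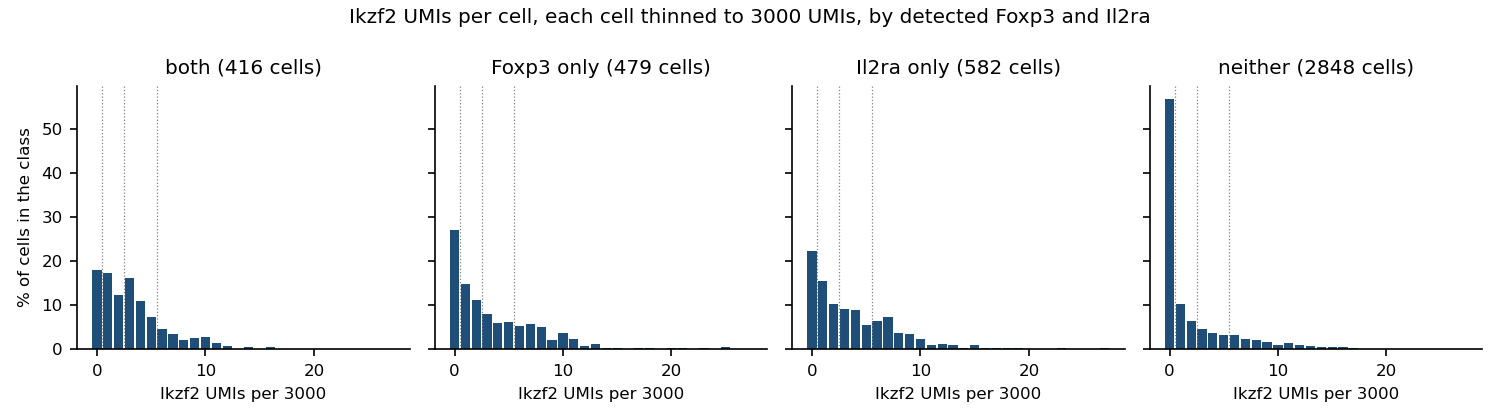
Share of cells (%) by Ikzf2 UMIs per cell, each cell thinned to 3000 UMIs, in the 4 classes by detected Foxp3 and Il2ra. Dotted lines separate the zero, low, middle and high levels. The zero bar holds 18.0%, 26.9% and 22.2% of cells with both, Foxp3 only and Il2ra only, and 56.8% of cells with neither.

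Along these levels the other members and the state genes were graded. From the zero through the low and middle to the high level, Ikzf4 had 46.0, 99.1, 126 and 152 CPM and Ikzf3 72.1, 102, 128 and 154 CPM. Ikzf1 had 267, 212, 205 and 217 CPM, and Ikzf5 29.2, 23.7, 18.9 and 29.7 CPM. Ikzf3 and Ikzf4 were thus higher at each step, and most of the difference in Ikzf1 lay between cells without and with Ikzf2. Tnfrsf9 had 48.5, 152, 250 and 509 CPM, and 8.82%, 24.7%, 36.4% and 57.8% of the cells had a UMI of it. Igfbp4 went the opposite way, with 329, 84.2, 49.6 and 20.5 CPM, and so did Il7r, with 344, 163, 131 and 96.6 CPM. The gate genes were not graded in this manner. Foxp3 had 31.3, 96.4, 94.9 and 75.7 CPM and Il2ra 44.1, 145, 175 and 119 CPM, so that both were higher at the middle than at the high level of Ikzf2, for Il2ra with intervals that did not overlap (157 to 193 and 105 to 133). The costimulatory receptor genes Tnfrsf4 (221, 529, 760 and 931 CPM) and Tnfrsf18 (178, 378, 506 and 524 CPM) and the signalling gene Nr4a1 (29.6, 70.8, 88.3 and 95.4 CPM) were higher at each step.

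**Figure D4:**
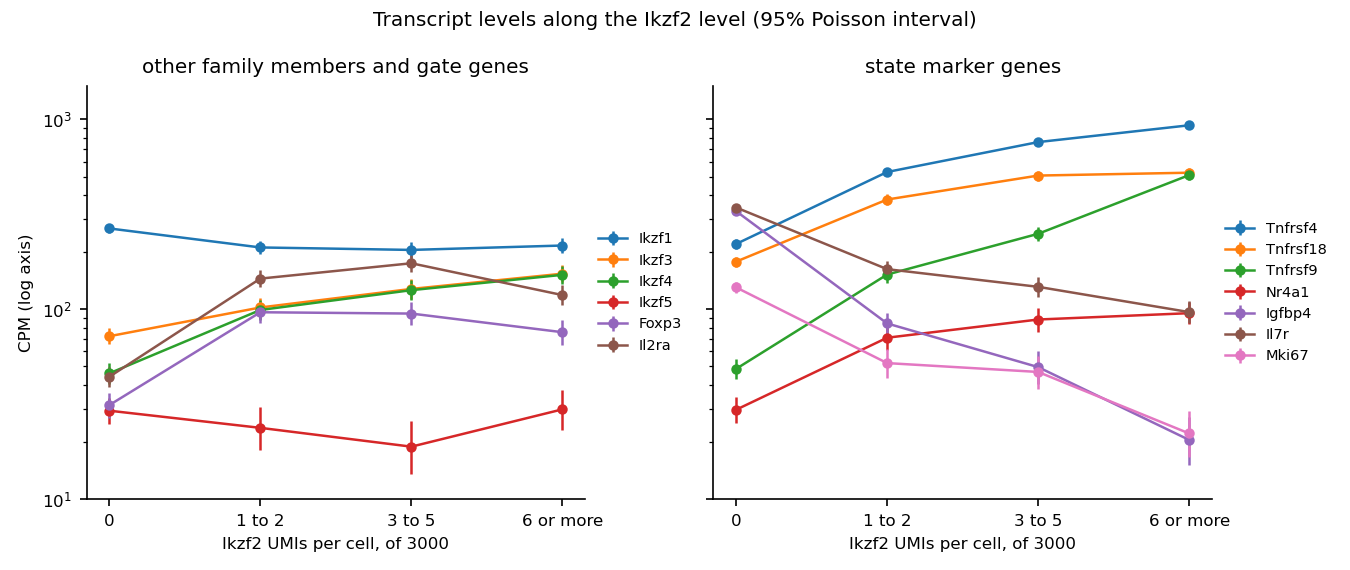
Level (CPM, log axis) of the other family genes with Foxp3 and Il2ra (left) and of state marker genes (right) in cells with 0, 1 to 2, 3 to 5 and 6 or more Ikzf2 UMIs of 3000. Bars are 95% Poisson intervals. Ikzf3, Ikzf4 and Tnfrsf9 are higher at each step, Igfbp4 is lower at each step, and Foxp3 and Il2ra are highest in between.

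High cells were next compared with zero cells across 7124 genes that had at least 100 UMIs in the 2 groups together. Of these, 7.20% were at least 1.5-fold higher in high cells and 5.36% at least 1.5-fold lower. Among the other 4 members, Ikzf4 and Ikzf3 were past that fold. Ikzf4 had 152 CPM in high cells and 46.0 CPM in zero cells, a log2 ratio of 1.72 (1.49 to 1.96), and Ikzf3 had 154 CPM and 72.1 CPM, a ratio of 1.09 (0.89 to 1.30). Ikzf1 had 217 CPM in high and 267 CPM in zero cells (-0.30, -0.45 to -0.15), and Ikzf5 differed by 0.02 (-0.40 to 0.43). Foxp3 was higher by 1.28 (0.97 to 1.58), at 75.7 CPM in high and 31.3 CPM in zero cells.

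The 12 largest ratios towards high cells were those of Colq (4.10), Rgs16 (3.39), Tnfrsf9 (3.39), Trib1 (3.14), Xcl1 (2.95), Dusp4 (2.92), Gadd45b (2.69), Tbc1d4 (2.67), Eno3 (2.66), Arhgap20 (2.59), Penk (2.48) and Swap70 (2.34). Rgs16 and Dusp4 encode brakes on G protein and MAP kinase signalling, Xcl1 a chemokine that attracts dendritic cells and Penk the precursor of enkephalins. Towards zero cells the largest were Lyz2 (-6.57), the lysozyme of macrophages, Jchain (-5.35), the joining chain of antibodies, and Igfbp4 (-4.00), a binding protein of insulin-like growth factors. The other 9, from Birc5 (-3.37) to Mki67 (-2.56), were genes of DNA replication, mitosis and histones. Lyz2 and Jchain rested on 2 and 4 UMIs in high cells and 466 and 398 UMIs in zero cells. The 12 proliferation markers summed to 486 CPM in high cells and 1505 CPM in zero cells, the 6 plasma cell markers to 119 and 541 CPM with Mzb1 at 0 in high cells, and the 10 myeloid markers to 232 and 327 CPM with Csf1r, Itgax and Siglech at 0 in high cells. Without clusters 2, 8 and 10 the log2 ratios were 0.98 for Ikzf3 and 1.60 for Ikzf4.

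By gene list, counting members past 1.5-fold with at least 50 UMIs, 10 of 14 Treg core genes were higher and 0 lower, with a median log2 ratio of 1.27 against 0.07 over all genes. Lrrc32, which displays latent TGF-beta on Treg cells, stood at 2.06, and Izumo1r, a folate receptor of Treg cells, at -0.24. Of 21 genes of strong T cell receptor signalling, 14 were higher and 0 lower (median 1.21), among them Nr4a3 (2.27), the NF-kB subunit gene Rel (1.34) and Irf4 (1.06), while Egr1 (0.00) and Cd69 (0.16) were not past the fold. Of 14 genes of cell death and survival, 8 were higher and 0 lower (median 0.63). They included both the death gene Bcl2l11 (1.56) and the survival genes Bcl2l1 (1.44) and Bcl2a1d (2.32), that is, genes that promote death as well as genes that prevent it. Of 15 genes of interleukin 2 and STAT5 signalling, 7 were higher and 1 lower, with Cish at 1.75, Stat5a at 1.62 and Socs3 at -1.04. Of 20 maturation and egress genes, 0 were higher and 6 lower, with Il7r at -1.83 and Ly6c1 at -1.44, whereas S1pr1 (-0.33) and Klf2 (-0.04) were within the fold. Of 15 proliferation genes, 0 were higher and 13 lower (median -2.67). Of the remaining lists, 4 of 12 immature CD4 thymocyte genes were higher and 4 lower, 5 of 15 effector and recirculating Treg genes were higher and 2 lower, 0 of 17 interferon response genes were higher and 2 lower, and 3 of 10 dissociation stress genes were higher and 0 lower.

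Genes of the partners through which Ikaros proteins act were compared in the same way. Over all genes, 7.20% were past 1.5-fold higher and 5.36% lower. Of 17 measured genes of NuRD and other corepressors, 0 were past 1.5-fold in either direction (median 0.12). In so short a list that count is near the shares over all genes. Chd4, the ATPase of NuRD, stood at 0.20, and the deacetylase gene Hdac1 was closest to the bound at 0.56 (0.40 to 0.73). In human cells thalidomide analogues degrade Ikaros and Aiolos through the cereblon ubiquitin ligase. Of 9 genes of this ligase, 1 was higher (Ddb1, 0.75) and Crbn itself stood at -0.54 (-0.89 to -0.20). Of 8 measured Notch pathway genes, 0 were higher and 1 was lower, Dtx1, at -2.42 (-3.36 to -1.60). Of 18 transcription factors of helper and Treg lineages, 3 were higher, Bcl6 (1.21), Gata3 (0.64) and Bach2 (0.61), and 2 lower, Lef1 (-0.94) and Satb1 (-0.91).

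The pairing of Ikzf2 with Ikzf3 and Ikzf4 was examined within classes of cells. Among cells with neither gate transcript, 424 high and 1618 zero cells, Ikzf4 had 141 CPM in high and 34.2 CPM in zero cells (2.04, 1.73 to 2.35), and Ikzf3 184 and 67.2 CPM (1.45, 1.21 to 1.70). Over all genes in that class 8.05% were higher and 6.44% lower. Among cells with Foxp3, 207 high and 204 zero, Ikzf4 had 188 CPM in high and 127 CPM in zero cells (0.56, 0.14 to 1.00) and Ikzf3 140 and 99.7 CPM (0.49, 0.00 to 0.99), with 5.48% of genes higher and 2.69% lower. The ratios among cells with Foxp3 were smaller than among cells with neither, and for both genes the intervals did not overlap. Foxp3 itself had 291 CPM in high and 299 CPM in zero cells of that class (-0.04, -0.34 to 0.27). Every cell of the class was chosen for having a Foxp3 UMI, so this ratio cannot show how Foxp3 goes with Ikzf2. Tnfrsf9 remained much higher in high cells, at 264 CPM against 34.3 CPM in zero cells (2.94, 2.28 to 3.67), as did the Treg receptor gene Nrp1 (1.84), and Igfbp4 was lower (-3.24). Among cells with Il2ra only, where 8.88% of genes were higher and 4.33% lower, Ikzf4 had 67 UMIs in 166 high cells and 25 UMIs in 129 zero cells, 135 and 64.6 CPM, below the 100 UMIs set for a comparison.

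The same comparison was made within the 6 clusters that held at least 20 high and 20 zero cells. Ikzf4 was higher in high cells in 6 of 6, beyond counting error in 5, with log2 ratios from 0.97 in cluster 6 (285 CPM in high and 146 CPM in zero cells) to 3.28 in cluster 7 (143 and 14.7 CPM, on 30 and 5 UMIs). Ikzf3 was not alike across clusters. It was higher in cluster 3, at 177 CPM in high and 83.3 CPM in zero cells (1.08, 0.51 to 1.70), and in cluster 0 (0.66, 0.09 to 1.26), and lower in cluster 7, at 33.3 and 88.5 CPM (-1.41, -2.84 to -0.19). Tnfrsf9 was higher in 6 of 6, beyond counting error in 5, with ratios from 0.93 in cluster 2 (-0.60 to 2.31) to 2.56 in cluster 0. Tnfrsf4 was higher beyond counting error in 6 of 6, with ratios from 0.66 to 1.54. Foxp3 was higher in 6 of 6 but beyond counting error in only 3. It had 33 UMIs in 195 high cells and 0 in 95 zero cells of cluster 0, and a ratio of 0.31 (-0.14 to 0.76) in cluster 6. Il2ra was higher beyond counting error in 2 of 6, Nr4a1 in 1 and Bcl2l11 in 1. In cluster 0 Bcl2l11 was lower (-0.61, -1.20 to -0.02). Igfbp4 was lower beyond counting error in 5 of 6 and Il7r in 3.

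Across pairs of members, Ikzf4 was detected in 27.3% of cells with Ikzf2 and 11.1% of cells without it, and Ikzf3 in 28.4% and 17.7%, at 3000 UMIs. Ikzf2 in turn was found in 50.5% of cells with Ikzf1 and 58.9% of cells without it. A cell had a UMI of 0 members in 14.6% of cases, of 1 in 37.1%, of 2 in 31.4%, of 3 in 14.0%, of 4 in 2.77% and of all 5 in 0.116%.

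The last comparison asked how loss of Lta bore on the family. Over all cells, Ikzf2 had 776 CPM in Lta-/- cells and 834 CPM in Foxp3eGFP cells, a log2 ratio of -0.10 (-0.14 to -0.07). Ikzf4 had 72.4 CPM in Lta-/- and 84.9 CPM in Foxp3eGFP cells (-0.23, -0.35 to -0.11). The ratio of Ikzf4 became -0.40 with cells thinned to 3000 UMIs, and also without clusters 2, 8 and 10. Ikzf1 had 233 CPM in Lta-/- and 218 CPM in Foxp3eGFP cells (0.09, 0.02 to 0.16), and its ratio was 0.17 without those clusters. Ikzf3 had 94.7 and 94.1 CPM (0.01, -0.10 to 0.12) and Ikzf5 24.3 and 25.2 CPM (-0.05, -0.27 to 0.16). None of the 5 was past 1.5-fold, a fold that 1.39% of 9661 genes passed upwards and 2.20% downwards. With 1 mouse per genotype, a difference between the genotypes cannot be told apart from one between 2 animals.

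The make-up of the 2 samples differed. Cluster 6, mature Treg-like, made up 12.7% of Lta-/- cells and 19.0% of Foxp3eGFP cells, the Ccr9-positive cluster 4 12.1% and 7.11%, and cluster 7 9.80% and 5.39%. Plasma cell markers summed to 129 CPM in Lta-/- and 782 CPM in Foxp3eGFP cells, B cell markers to 97.6 and 360 CPM with Pax5 at 0 in both, and proliferation markers to 1521 and 2275 CPM. The 12 markers of interferon-responding cells summed to 1398 and 1948 CPM in the same order. With every cluster given the same weight in both genotypes the Ikzf2 ratio was -0.040, and without clusters 2, 8 and 10 it was -0.23. The value thus moved by more than its counting error in both directions.

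Within classes the sign for Ikzf2 varied. In cells with Il2ra only it had 1304 CPM in Lta-/- and 1124 CPM in Foxp3eGFP cells (0.21, 0.13 to 0.30), and Ikzf1 was also higher there, at 232 and 181 CPM (0.36, 0.16 to 0.56). With cells thinned to 3000 UMIs the genotypes lay closer in this class, at means of 3.98 and 3.76 Ikzf2 UMIs per cell. The intervals of its zero shares (22.7% in Lta-/- and 20.9% in Foxp3eGFP cells) and high shares (30.7% and 28.1%) overlapped. In cells with neither transcript Ikzf2 had 597 CPM in Lta-/- and 671 CPM in Foxp3eGFP cells (-0.17, -0.22 to -0.12), with thinned means of 1.95 and 2.24 UMIs per cell. The intervals held 0 in cells with both (0.03) and with Foxp3 only (-0.08). Within the 11 clusters, the Ikzf2 ratio was below 0 in 6 and above 0 in 5. It was lowest in the Igfbp4-positive cluster 9, at 74.6 CPM in Lta-/- and 121 CPM in Foxp3eGFP cells (-0.69, -1.04 to -0.35), and in the S1pr1-positive cluster 5, at 288 and 380 CPM (-0.40, -0.62 to -0.18), both clusters with little Ikzf2. Detection of Ikzf2 in cluster 9 was not read as expression above, so its ratio is not read as a difference in expression. In the mature Treg-like cluster 6 Ikzf2 was higher, at 1186 CPM in Lta-/- and 1074 CPM in Foxp3eGFP cells (0.14, 0.05 to 0.23).

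For Ikzf4, the ratios beyond counting error were all below 0. The Ikzf4 ratio was below 0 in 8 of 11 clusters, beyond counting error in 3, and above 0 beyond counting error in none. Its ratios spread more widely than those of Ikzf2, and clusters 4 and 10 held only 45 and 26 Ikzf4 UMIs. Ikzf5 was also below 0 in 8 of 11 clusters, beyond counting error in none, so that count alone does not set Ikzf4 apart. In cluster 6, where it was most abundant, Ikzf4 had 163 CPM in Lta-/- and 200.2 CPM in Foxp3eGFP cells (-0.29, -0.52 to -0.07). In cluster 5 it had 95.9 and 128 CPM (-0.41, -0.80 to -0.03) and in cluster 7 67.3 and 97.3 CPM (-0.53, -1.01 to -0.05). In the mature Treg-like cluster, therefore, Ikzf2 and Ikzf4 differed in opposite directions between the 2 mice. Ikzf1 was higher in Lta-/- cells in cluster 0, at 286 and 228 CPM (0.33, 0.11 to 0.55), and in cluster 3, at 239 and 194 CPM (0.30, 0.12 to 0.47).

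**Figure D5:**
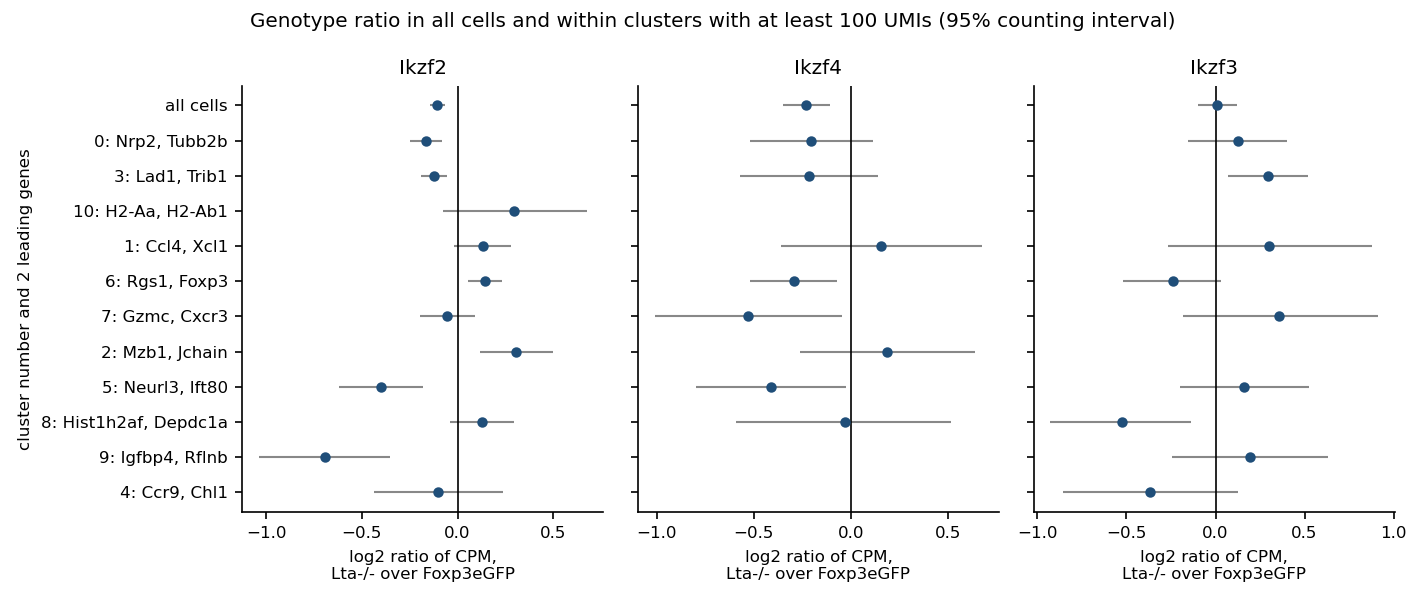
Log2 ratio of the level (CPM) in Lta-/- over Foxp3eGFP cells for Ikzf2, Ikzf4 and Ikzf3, in all cells and within each cluster that had at least 100 UMIs of the gene in both genotypes together, with 95% counting intervals. Ikzf2 runs from -0.69 in cluster 9, where its detection is not read as expression, to 0.31 in cluster 2. Ikzf4 lies below 0 in clusters 5, 6 and 7 with intervals clear of 0.

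By level, Ikzf2-high cells were 18.2% (16.6 to 19.9) of the Lta-/- sample against 19.3% (17.6 to 21.1) in the Foxp3eGFP sample. Zero cells were 47.5% (45.3 to 49.7) in Lta-/- against 43.2% (41.1 to 45.4) in Foxp3eGFP, and middle cells 14.5% against 17.6%. The intervals of the genotypes barely overlapped at the zero level and overlapped widely at the high level. Within high cells, Ikzf2 itself had 2996 CPM in Lta-/- and 3105 CPM in Foxp3eGFP cells (-0.05, -0.12 to 0.02).

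Among high cells, 379 Lta-/- and 398 Foxp3eGFP, 1.60% of 3497 genes were at least 1.5-fold higher and 1.52% lower. None of Ikzf1, Ikzf3 and Ikzf4 was past the fold, with Ikzf5 below 100 UMIs, and Ikzf4 had 136 CPM in Lta-/- and 170.0 CPM in Foxp3eGFP cells (-0.32, -0.63 to -0.01). The largest ratios towards Lta-/- cells were H2-Q7 (1.54), Dnah8 (1.44), Glo1 (1.33), Ctla2a (1.09), Srebf2 (1.07) and Oard1 (0.97). Of these 6, 4 lie on chromosome 17, which also holds Lta (35203165 to 35205578), with H2-Q7 at 35439140 to 35443773 and Dnah8 at 30626935 to 30875762. The share of all compared genes on chromosome 17 was not computed, so the count has no background. Whether these differences relate to the position of Lta was not tested. The largest towards Foxp3eGFP cells were Nrp2 (-2.49), Penk (-2.47), Ifi208 (-1.43), Ly6k (-1.33), Rcor1 (-0.90) and Ccr9 (-0.87), with 0 of 6 on chromosome 17. Nrp2, a receptor of semaphorins and a leading gene of cluster 0, had 14.95 CPM in Lta-/- and 83.8 CPM in Foxp3eGFP high cells. The interferon-induced genes Ifit1 and Isg15 were also lower in Lta-/- high cells, by -0.81 and -0.79, and Tnfrsf9 differed by -0.13 (-0.30 to 0.03). The 12 markers of interferon-responding cells were lower over all Lta-/- cells too, at 1398 CPM against 1948 CPM in Foxp3eGFP cells.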

How the data were processed

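Droplet 3′ single-cell RNA and hashtag counts came from 1 capture of cells of 2 mice. The authors deposited raw UMI counts, not normalized, with RNA and hashtags in 1 matrix, so both libraries share all barcodes. The submitters' processing notes list Cell Ranger 6.0.1, mm10 and GRCm38, with no role given. How the authors called cells is not given in the sources used here. Genotypes followed the deposited hashtag names, whose numbering differs from that of the antibodies in the labels. A cell took a genotype if 80% or more of its hashtag counts, and 10 or more counts, were of 1 hashtag. Of 4798 barcodes, 160 were dropped for fewer than 500 genes or over 10% mitochondrial UMIs. Cells with both hashtags were kept in comparisons by class, and doublets within a genotype could not be found and no doublet caller was run.

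UMIs were summed per class. Ratios have exact conditional binomial intervals, shares Clopper-Pearson and levels Poisson intervals at 95%. These cover counting error only, since cells of 1 mouse are not replicates and no p-value was computed. A 0 was set to 3 counts in ratios. Genes needed 100 UMIs in both groups together. Thinning drew 3000 UMIs per cell. Clusters came from scanpy 1.11.5 (2000 variable genes, 30 components, 15 neighbours, Leiden resolution 0.8, which was set after a resolution of 0.6 had merged myeloid cells with Treg-like cells). Variable genes excluded the family genes, Foxp3, Il2ra, Lta, Ltb, V(D)J segments and sex-linked genes. Clusters were named from at least 3 markers of a list at least 1.5-fold higher, unless their leading genes went against the name. Python 3.11.15, numpy 2.4.6, scipy 1.17.1, pandas 2.3.3 and matplotlib 3.10.9 were used, and the interval and thinning code was tested on simulated data.

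Named genes were the 5 members, the 12 largest ratios each way between Ikzf2-high and Ikzf2-zero cells and the 6 each way between genotypes within high cells (50 CPM in the higher group, without mitochondrial, ribosomal, Gm, Rik, sex-linked and V(D)J genes), the 5 genes most like each member among those with 500 UMIs, and members of gene lists. The members, lists and levels were chosen with earlier results of these data known.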

Additional observations from a re-analysis of the deposited data

Results flagged for a closer look

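The genotype ratio of 2 members lay on opposite sides of 0, beyond counting error, in different groups of cells. The difference between the groups of cells was not tested, since each genotype is 1 mouse. For Ikzf2 the log2 ratio of Lta-/- over Foxp3eGFP cells was 0.31 in cluster 2 and 0.14 in cluster 6, against -0.17 in cluster 0, -0.12 in cluster 3, -0.40 in cluster 5 and -0.69 in cluster 9. Detection of Ikzf2 in cluster 9 is not read as expression. By detected gate transcripts the Ikzf2 ratio was 0.21 in cells with Il2ra only and -0.17 in cells with neither. In Il2ra-only cells thinned to 3000 UMIs the genotypes lay closer, at means of 3.98 Ikzf2 UMIs per cell in Lta-/- and 3.76 in Foxp3eGFP cells. For Ikzf3 the genotype ratio was 0.30 in cluster 3 and -0.53 in cluster 8, the proliferating-like cells.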

How the results depend on the processing

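In all, 26 results were recomputed under 121 alternatives, and 84 of these values stayed within the counting interval of the value reported. The ratios of Ikzf2 over cells with neither transcript kept their sign in every alternative run. For cells with both transcripts the ratio of 0.80 became 0.64 with thinned cells, 0.96 in Lta-/- cells alone, 0.60 without clusters 2, 8 and 10, 0.61 as a mean over cells and 0.70 when a class needed 2 UMIs. For Foxp3 only, 0.86 became 0.80, 0.94, 0.74, 0.65 and 1.04 in the same order. For Il2ra only, 0.87 became 1.13 in Lta-/- cells alone, 0.74 in Foxp3eGFP cells alone, 0.81 without those clusters, 0.93 with the stricter cell filter, 0.81 as a mean over cells and 0.92 without cells with both hashtags, an alternative chosen after seeing the data. The genotype ratio of Ikzf2, -0.10, became -0.16 with thinned cells, -0.23 without those clusters and -0.040 with equal cluster sizes. The log2 ratio of high shares between genotypes was -0.08 and ranged from -0.21 to -0.07. The ratio of Foxp3 between high and zero cells, 1.28, became 1.62 with levels from unthinned counts. For the other members 16 values moved. Among ratios whose interval lay clear of 0, 1 changed sign, that of Ikzf5 in cells with both transcripts, which became -0.026 with thinned cells. Among ratios of Ikzf3 and Ikzf5 whose interval held 0, 6 alternatives lay on the other side of 0. The causes were not tested. At a Leiden resolution of 0.6, also chosen after seeing the data, there were 9 clusters, with Ikzf2 from 88.5 to 1756 CPM apart from 43 barcodes at a median of 1121 UMIs that had 4152 CPM. No paired analysis was possible because each genotype is 1 mouse. Depth limits Ikzf5, with 765 UMIs in all, and members within single clusters.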
